A study of Homo sapiens with 24 samples.

Results

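The genes described here are 8 inhibitors of mTORC1: DDIT4, DDIT4L, SESN1, SESN2, SESN3, CASTOR1, CASTOR2 and DEPTOR. They are 8 of the 61533 genes in a table of exon read counts from 4sU-seq of U2OS cells, a human osteosarcoma line. They were chosen by name and selected on their CPM (read counts scaled to library size) in these 24 libraries, which were already known, so their levels are given as a description, and the adjusted p-values, which come from fits across all tested genes, are not independent evidence that these genes respond.

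In 4sU-seq, cells take up 4-thiouridine, which enters RNA as it is made, and the labelled RNA is then pulled down for sequencing. Each line made a glucocorticoid receptor (GR) with a HaloTag, by which the cells were sorted. The wt line carried unmutated GR, the SoF line carried K492A, a substitution that reduces RNA binding, and the Ctrl line carried R470A, a substitution that reduces DNA binding and controls for the loss of DNA affinity in SoF. Each line was 1 selected and sorted pool, so the construct and the pool cannot be told apart. In charcoal-stripped serum, the cells were given the synthetic glucocorticoid dexamethasone at 100 nM over 1, 2 or 3 h, or else 0.01% ethanol as the 0 h group, and all dishes received 200 µM 4-thiouridine for the last 1 h. Per the methods of the study, these were given by replacing the medium, so hours of dexamethasone are also hours in fresh medium. With a single ethanol group, these cannot be told apart, and that holds for steps between times too. How long the ethanol dishes stayed in ethanol is not stated. There were 12 groups of line and time with 2 libraries each, 24 in all, and the labels do not say whether the libraries of a group came from separate cultures, so the p-values measure the spread between libraries, which may be technical. Per the methods of the study, RNA was biotinylated and pulled down in pairs of replicates. If the 2 libraries of a group shared a pulldown, variation between pulldowns is part of a difference between groups and not of the spread within them, and its part in the results was not tested.

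mTORC1 is the kinase complex that drives protein synthesis and growth when amino acids, energy and growth factors are plentiful. Its inhibitors act at different points. DDIT4, also called REDD1, and its relative DDIT4L act through the TSC complex, which switches off RHEB, the activator of mTORC1. The sestrins (SESN1, SESN2, SESN3) and the CASTOR proteins bind GATOR2, and so keep mTORC1 from the lysosome. SESN2 does so when leucine is low and CASTOR1 when arginine is low. DEPTOR binds mTOR itself. DDIT4 is a well-known glucocorticoid target in muscle and lymphoid cells.

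Total counts per library ranged from 8106036 to 15820806. FKBP5, PER1, TSC22D3 and ZBTB16, 4 established glucocorticoid targets, rose at every time in the mean of the 3 lines. RNA of the receptor gene NR3C1 differed between lines. In ethanol it had 552 and 824 CPM in wt, 2833 and 2428 in SoF, and 3202 and 3431 in Ctrl. At 1 h it was higher, with 1312 and 1595 CPM in wt, 6273 and 5330 in SoF, and 5592 and 7658 in Ctrl. At 2 h it had 469 and 715 CPM in wt, 1947 and 1779 in SoF, and 2234 and 2515 in Ctrl. At 3 h it had 334 and 366 CPM in wt, 1118 and 1130 in SoF, and 1764 and 1627 in Ctrl. The part of the integrated construct in these reads was not tested. Per the study, sorted fractions were chosen to match the nuclear GR signal. The part of receptor RNA in the differences between lines was not tested. Among bone-lineage markers, RUNX2, COL1A1 and ALPL had at least 8.07 CPM in every library, whereas COL1A2, SP7, IBSP and BGLAP did not exceed 1.32 CPM in any. EPCAM, CDH1, PTPRC and PECAM1, markers of epithelial, blood and endothelial cells, reached at most 8.09 CPM, and of the 3 of these that were tested, 2 were lower at 3 h than in ethanol, whose part in the results below was not tested. The ethanol libraries stood apart from each other. The distance between the 2 ethanol libraries of a line was 36.7% (wt), 65.9% (SoF) and 70.9% (Ctrl) of the separation between 0 h and 3 h along the first principal component (39.6% of the variance), and replicate 1 was the nearer to 3 h in each line. The deviations of replicate 1 from replicate 2 in ethanol also went together across lines, with correlations over genes of 0.396 (wt and SoF), 0.394 (wt and Ctrl) and 0.568 (SoF and Ctrl), and the standard errors of the mean of the lines treat these libraries as independent. For the main values against ethanol, the value with the ethanol replicates 1 or 2 of all lines left out is therefore given too.

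Per length, DDIT4 had the highest level of these genes in the labelled RNA, and DDIT4L was not detected. Total RNA was not measured in these libraries, so the order of the genes there is not known. Levels of different genes were compared as CPM per kb of exon. For CASTOR1, 1262 of 2741 exon bases are also exon of another gene on the same strand. Its values per kb, and its place among these genes, are therefore uncertain. Over the 24 libraries, DDIT4 had a mean of 85.1 CPM per kb (range 25.2 to 172), SESN2 16.8, CASTOR1 10.0, SESN3 6.45, CASTOR2 5.25 and DEPTOR 0.378, and SESN1 lay between CASTOR2 and DEPTOR. Over all libraries, the ranges of neighbours from DDIT4 down to CASTOR2 overlapped. CASTOR2, at 3.69 CPM per kb or more, did not overlap SESN1, at 3.39 or less, and DEPTOR, at 0.879 or less, lay below every library of SESN1. CASTOR1 changed place: at 0 h its median was 2.91 and its highest value 4.03 CPM per kb, overlapping SESN1 (2.18 to 3.17), and at 3 h it had 7.21 to 22.7 CPM per kb, above every 3 h library of SESN3, CASTOR2 and SESN1. DDIT4L had 0 counts in all 24 libraries, which allows up to 0.202 to 0.353 CPM depending on the library (3 counts, counting error only). The other 7 genes passed the filter on low counts and were tested.

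**Figure D1:**
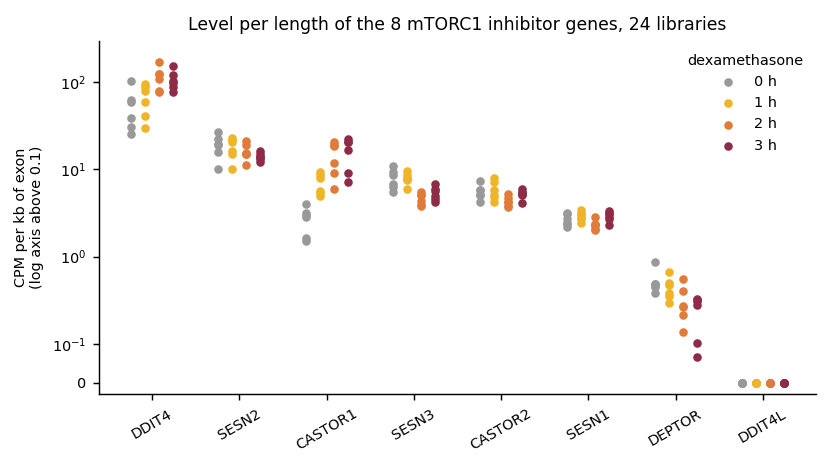
Level of each of the 8 genes, as CPM per kb of exon (y axis, logarithmic above 0.1), in 24 libraries coloured by hours of dexamethasone; each point is 1 library. DDIT4 lies highest, CASTOR1 climbs from at most 4.03 at 0 h to between 7.21 and 22.7 at 3 h, and DDIT4L is at 0 throughout.

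CASTOR1, the arginine sensor, rose most. In wt its levels were 11.1 and 8.16 CPM at 0 h, 25.9 and 23.7 at 1 h, 56.2 and 52.3 at 2 h, and 45.8 and 62.1 at 3 h. In SoF they were 7.81 and 4.51, then 21.6 and 13.7, 50.6 and 32.1, and 56.7 and 57.2 CPM. In Ctrl they were 8.78 and 4.12, then 14.7 and 15.5, 16.2 and 24.8, and 19.8 and 24.9 CPM. Every dexamethasone library of a line lay above both of its ethanol libraries. At 2 h and 3 h each Ctrl library lay below each wt and SoF library. Bulk libraries cannot tell apart more RNA per cell and more cells that make it.

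In the mean of the 3 lines, CASTOR1 rose 2.53-fold at 1 h (log2 fold change 1.34, SE 0.18, edgeR quasi-likelihood adjusted p = 0.000141), 4.85-fold at 2 h (log2 2.28, SE 0.18, adjusted p = 5.26e-09) and 5.53-fold at 3 h (log2 2.47, SE 0.18, adjusted p = 6.34e-10). Only 0.364% of the 23651 tested genes had a higher fold change at 3 h. The 3 h value was 2.94 without the ethanol replicates 1 and 2.17 without the ethanol replicates 2, at 2 h the values were 2.74 and 1.97 and at 1 h 1.79 and 1.03, each still called. All times of a line share the same ethanol libraries.

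The reads of CASTOR1 are shared with a second gene model. CASTOR1 lies on the minus strand at chr22:30285117-30289622 (hg38), and the readthrough gene ENSG00000248751 begins within TBC1D10A and runs on the same strand into it. Of 2741 exon bases of CASTOR1, 1262 are also exon of ENSG00000248751. The counting could leave out or split reads there, so the counts of both are uncertain. ENSG00000248751 rose too, by 1.79 on the log2 scale at 3 h in the mean of the lines (SE 0.15, adjusted p = 6.46e-09), and at 1 h its value was 0.52 (adjusted p = 0.127). The neighbours on the same strand were compared to see how far the rise reached. At 3 h LIF, a cytokine gene downstream, rose 2.15-fold (adjusted p = 1.69e-05), and ENSG00000279699, a transcript of unknown status nearer by, rose by 1.94 on the log2 scale (adjusted p = 4.77e-07). TBC1D10A, upstream, rose by 0.48 (adjusted p = 0.000216), and SF3A1, further upstream, had 0.13 (adjusted p = 0.282). CASTOR1 had a larger value at 3 h than each of these, and the differences between genes were not tested.

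**Figure D2:**
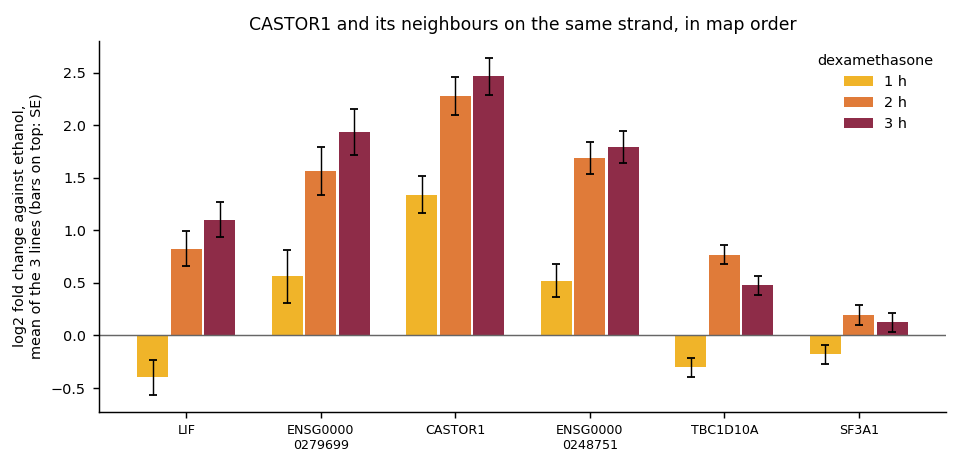
Log2 fold change against ethanol, mean of the 3 lines (y axis), for CASTOR1 and 5 neighbours on the same strand in map order, at 1, 2 and 3 h; bars start at 0 and lines on them are the SE. CASTOR1 has 1.34, 2.28 and 2.47, and SF3A1 at the right stays near 0.

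The sequence before the start of CASTOR1 is shown because it holds 2 copies of the receptor's binding motif, searched as GNACA, then 3 bases of any kind, then TGTNC, which reads the same on both strands. Within 10000 bases on either side of the annotated start, the centres of the 2 matches were at -1614 and -1438 bases from the start. Of 23580 tested genes with a position, 22.6% had at least 1 match in such a window and 3.12% had 2 or more. The stretch with both lies between CASTOR1 and TBC1D10A at chr22:30291044-30291252, outside the exons of either and within an intron of ENSG00000248751. CASTOR2 had 1 match at -574 bases (chr7:74964115-74964147) and SESN2 had 1 at -4919 bases (chr1:28254583-28254615), both outside annotated genes. DDIT4, SESN1, SESN3 and DEPTOR had none in this window, which says nothing about sites farther away. The stretches are given 5′ to 3′ on the strand of the gene, from hg38, with the motif in capitals.
CASTOR1: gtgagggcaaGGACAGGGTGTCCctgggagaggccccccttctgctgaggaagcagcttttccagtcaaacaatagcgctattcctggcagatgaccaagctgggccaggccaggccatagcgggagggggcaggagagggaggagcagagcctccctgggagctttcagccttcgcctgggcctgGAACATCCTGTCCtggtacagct
CASTOR2: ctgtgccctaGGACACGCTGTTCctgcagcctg
SESN2: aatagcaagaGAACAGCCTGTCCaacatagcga
A match is a run of letters and not a measured binding site.

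DDIT4 rose in wt and SoF. In wt it had 65.3 and 82.3 CPM at 0 h, 87.5 and 169 at 1 h, 165 and 364 at 2 h, and 219 and 165 at 3 h. In SoF it had 126 and 53.4 CPM, then 125 and 63.0, 262 and 168, and 324 and 257. In Ctrl it had 221 and 132 CPM, then 203 and 185, 233 and 263, and 206 and 189. All wt dexamethasone libraries lay above the wt ethanol libraries, and the SoF libraries did so from 2 h. In Ctrl the 3 h libraries lay between the ethanol libraries, and the ethanol libraries of Ctrl were the highest of the 3 lines.

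In the mean of the lines, DDIT4 changed by 0.33 on the log2 scale at 1 h (SE 0.22, adjusted p = 0.504), rose 2.29-fold at 2 h (log2 1.19, SE 0.22, adjusted p = 0.000345) and was 2.11-fold above ethanol at 3 h (log2 1.08, SE 0.22, adjusted p = 0.000544). Without the ethanol replicates 1 the values were 1.52 at 2 h and 1.42 at 3 h, and without the ethanol replicates 2 they were 0.98 and 0.87, all called. At 3 h 3.51% of the tested genes had a higher fold change.

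The promoter of DDIT4 is shown because this gene is known to respond to low oxygen as well as to glucocorticoids. The 250 bases before its RefSeq start (chr10:72273674-72273923, GRCh38, plus strand) overlap the first bases of the annotated DDIT4 exon and an exon of the antisense transcript ENSG00000289506. They are printed with the matches to ACGTG, 1 form of the core that HIF factors read, and to TGCGCNC, a core of metal response elements, in capitals. The form GCGTG was not searched and stays in lower case. The matches share bases, and both strands were searched.
DDIT4: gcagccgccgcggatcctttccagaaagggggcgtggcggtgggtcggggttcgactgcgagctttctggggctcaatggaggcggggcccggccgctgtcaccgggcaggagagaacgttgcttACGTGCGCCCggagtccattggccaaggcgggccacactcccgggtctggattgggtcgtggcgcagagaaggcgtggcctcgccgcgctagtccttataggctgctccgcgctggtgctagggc
ACGTG was in 18.5% and TGCGCNC in 16.8% of 35116 promoters of this length. The full receptor motif and its shorter part AGAACA were in none of the 8 promoters found for 6 of the genes, and in 0.327% and 12.4% of all promoters. The forkhead motif GTAAACA (2.98% of promoters) was in none of the 8 either. The other metal response core, TGCACNC (9.87% of promoters), was in that of DDIT4L, and TGCGCNC also occurred 2 times in 1 of the SESN1 promoters.

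**Figure D3:**
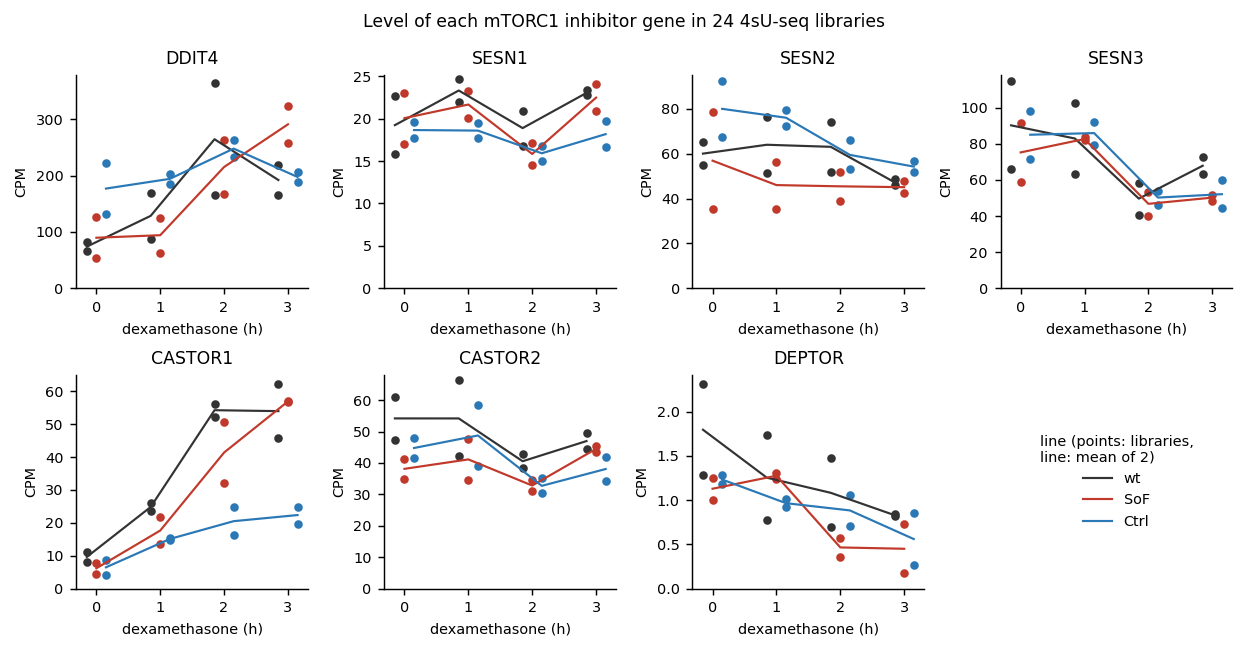
CPM (y axis, from 0) against hours of dexamethasone for the 7 counted genes, with 1 point per library and lines through the mean of 2, in wt (black), SoF (red) and Ctrl (blue). CASTOR1 rises in all 3 lines and least in Ctrl, where it reaches 19.8 and 24.9 CPM at 3 h, and SESN3 is lower at 2 h than at 0 h in all 3.

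SESN3, a sestrin that FOXO factors are known to induce, fell. In wt it had 65.9 and 115 CPM at 0 h, 103 and 63.1 at 1 h, 58.5 and 40.9 at 2 h, and 63.2 and 72.6 at 3 h. In SoF it had 59.0 and 91.5 CPM, then 81.9 and 83.6, 40.0 and 53.6, and 48.5 and 51.9. In Ctrl it had 71.7 and 98.4 CPM, then 79.6 and 92.3, 46.4 and 54.1, and 44.2 and 60.1. All 6 libraries at 2 h lay below all 6 ethanol libraries, whereas the 3 h libraries of wt overlapped those of ethanol.

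In the mean of the lines, SESN3 had a log2 fold change of 0.01 at 1 h (adjusted p = 0.983) and fell by 0.77 on the log2 scale at 2 h (SE 0.15, adjusted p = 0.000646) and by 0.56 at 3 h (SE 0.15, adjusted p = 0.00496). These calls rest on the ethanol replicates 2, which were the higher in each line. Without them the values were -0.42 at 2 h (adjusted p = 0.0519) and -0.21 at 3 h (adjusted p = 0.295), and without the ethanol replicates 1 they were -1.06 and -0.84. The step from 1 h to 2 h does not use ethanol, and there SESN3 fell by 0.78 (SE 0.15, adjusted p = 0.000326). Time in fresh medium differed in that step too. Leaving out ethanol does not make its libraries independent. The replicate deviations at 1 h and 2 h of a line had correlations over genes of 0.120 (Ctrl), 0.277 (SoF) and 0.299 (wt).

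SESN2, the leucine sensor, was spread widely. It had 35.4, 66.5 and 92.5 CPM at 0 h (lowest, median and highest of 6 libraries over the 3 lines) and 42.3, 48.2 and 56.8 CPM at 3 h. The 3 h libraries lay inside the range of ethanol. In the mean of the lines it fell by 0.42 on the log2 scale at 3 h (SE 0.16, adjusted p = 0.0419), and at 2 h it had -0.23 (adjusted p = 0.296). The 3 h call was lost in 12 of the 24 fits that left out 1 library, with the largest move without SoF 0 h replicate 1 (-0.18, adjusted p = 0.318), without the ethanol replicates 1 the value was -0.14 (adjusted p = 0.469), and without the ethanol replicates 2 it was -0.59 (adjusted p = 0.00373).

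SESN1, another sestrin, had 2.18, 2.56 and 3.17 CPM per kb at 0 h (lowest, median, highest of 6), 2.43, 2.89 and 3.39 at 1 h, 2.00, 2.31 and 2.88 at 2 h, and 2.29, 3.00 and 3.31 at 3 h. All times overlapped. No time against ethanol was called (log2 0.13, -0.20 and 0.13), and with either set of ethanol replicates left out the 3 h value was 0.16 or 0.14. The step from 1 h to 2 h was called at -0.33 (SE 0.11, adjusted p = 0.0211), but not in 6 of 24 fits that left out 1 of its 1 h or 2 h libraries (lowest size without wt 2 h replicate 2, -0.27, adjusted p = 0.0814).

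CASTOR2, the close relative of CASTOR1, did not follow it. It had 4.26, 5.43 and 7.43 CPM per kb at 0 h (lowest, median, highest of 6), 3.69, 4.25 and 5.21 at 2 h, and 4.18, 5.36 and 6.02 at 3 h, and these ranges overlapped. It fell by 0.36 on the log2 scale at 2 h (SE 0.12, adjusted p = 0.0293) and had -0.07 at 3 h (adjusted p = 0.657), where CASTOR1 had 2.47. The 2 h call was lost without any of 6 libraries (for example wt 0 h replicate 2, -0.31, adjusted p = 0.0933) and without the ethanol replicates 2 (-0.37, adjusted p = 0.0833). The step from 1 h to 2 h, which does not use ethanol, was called at -0.44 (SE 0.12, adjusted p = 0.00606), and there too the time in fresh medium differed. The counts of CASTOR2 are uncertain, because it overlaps RCC1L on the opposite strand and has a near copy, CASTOR3P, which fell by 0.73 at 3 h (adjusted p = 0.0011).

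DEPTOR, which binds mTOR itself, was scarce, with 2 to 30 reads per library. It had 1.00, 1.27 and 2.31 CPM at 0 h (lowest, median, highest of 6), 0.772, 1.13 and 1.73 at 1 h, 0.362, 0.702 and 1.47 at 2 h, and 0.172, 0.773 and 0.848 at 3 h. All 6 libraries at 3 h lay below all 6 ethanol libraries. It fell by 1.17 on the log2 scale at 3 h (SE 0.33, adjusted p = 0.00679), with -1.20 and -1.07 when either set of ethanol replicates was left out, both called. At 2 h the value was -0.82 (adjusted p = 0.056).

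The counts of called genes are set here beside the share of all tested genes called. In the mean of the lines, 1 of the 7 tested was called at 1 h, where 1.28% of all tested genes were. At 2 h 4 were called, 2 higher and 2 lower (background 28.8%, of which 16.2% higher and 12.6% lower), and at 3 h 5, 2 higher and 3 lower (background 40.3%, of which 20.9% higher and 19.3% lower). The median log2 fold change of the 7 at 3 h was -0.07, beside -0.03 for all tested genes. For the step from 1 h to 2 h 5 were called, DDIT4 (0.86) and CASTOR1 (0.94) higher and SESN1, SESN3 and CASTOR2 lower (background 44.9%, of which 22.7% higher and 22.1% lower). From 2 h to 3 h edgeR called none (background 10%), and SESN1 (0.33) and CASTOR2 (0.29) were at an unadjusted p under 0.05, as were 5262 of all 23651 tested genes. DESeq2 called none for that step either.

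Within each line, fewer passed. At 1 h none was called in any line by edgeR (background 0.156% in wt, 0.165% in SoF and 0.0465% in Ctrl), although CASTOR1 was at an unadjusted p under 0.05 in each, with log2 values of 1.36, 1.49 and 1.17. Of all 23651 tested genes, 2602 in wt, 1645 in SoF and 423 in Ctrl were at an unadjusted p under 0.05. DESeq2 called CASTOR1 at 1 h in wt and in SoF, and no member in Ctrl. At 2 h wt had 2 calls, DDIT4 (1.84, SE 0.39) and CASTOR1 (2.49, SE 0.30) (background 4.6%), SoF had CASTOR1 (2.72, SE 0.31; background 5.68%) and Ctrl had CASTOR1 (1.62, SE 0.31; background 7.95%). In SoF at 2 h DDIT4 had 1.26 (SE 0.39, adjusted p = 0.058), which was 2.02 (adjusted p = 0.00974) without SoF 0 h replicate 1 and 0.77 (adjusted p = 0.518) without SoF 0 h replicate 2. SESN3 was lower in each line at 2 h without being called by edgeR, at -0.86 in wt (adjusted p = 0.0631), -0.68 in SoF (0.142) and -0.75 in Ctrl (0.0829). DESeq2 called SESN3 at 2 h in wt (-0.88, adjusted p = 0.0227) and Ctrl (-0.78, adjusted p = 0.0396).

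At 3 h wt again had DDIT4 (1.38, SE 0.39, adjusted p = 0.0243) and CASTOR1 (2.49, SE 0.30, adjusted p = 9.28e-06; background 10.7%). SoF had the same pair, DDIT4 at 1.69 (SE 0.39, adjusted p = 0.00403) and CASTOR1 at 3.18 (SE 0.31, adjusted p = 4.66e-07; background 19.3%). In Ctrl edgeR called CASTOR1 and no other member, at 1.73 (SE 0.31, adjusted p = 0.000746; background 14.2%), and DDIT4 had 0.16 (95% interval -0.63 to 0.94, adjusted p = 0.831). SESN3 in Ctrl had -0.70 (adjusted p = 0.0785) and was called by DESeq2 (-0.72, adjusted p = 0.0479) and in a fit of the Ctrl libraries alone (-0.71, adjusted p = 0.0207), where SESN2 was called as well (-0.57, adjusted p = 0.0382). With the ethanol replicates 1 or 2 of all lines left out, DDIT4 in wt at 3 h had 1.21 or 1.58, and in SoF 2.46 or 1.21. SESN3 in wt at 3 h, at -0.41 with all libraries, had -0.77 or 0.07 in these fits. SESN2 in SoF at 3 h, at -0.34 with all libraries, had 0.36 or -0.80. With 2 libraries per group, single libraries decided several of the DDIT4 calls. In wt the 3 h call was lost without any 1 of its 4 libraries (1.17 to 1.58), and the 2 h call was lost without wt 0 h replicate 1 (1.65), wt 0 h replicate 2 (2.01) or wt 2 h replicate 2 (1.14). In SoF the 3 h value was 1.21 (adjusted p = 0.0944) without SoF 0 h replicate 2 and 2.45 without replicate 1. CASTOR1 in Ctrl at 2 h was no longer called without Ctrl 0 h replicate 2 (1.22) or Ctrl 2 h replicate 2 (1.26), and without Ctrl 0 h replicate 1 it was 2.32 at 2 h and 2.45 at 3 h.

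**Figure D4:**
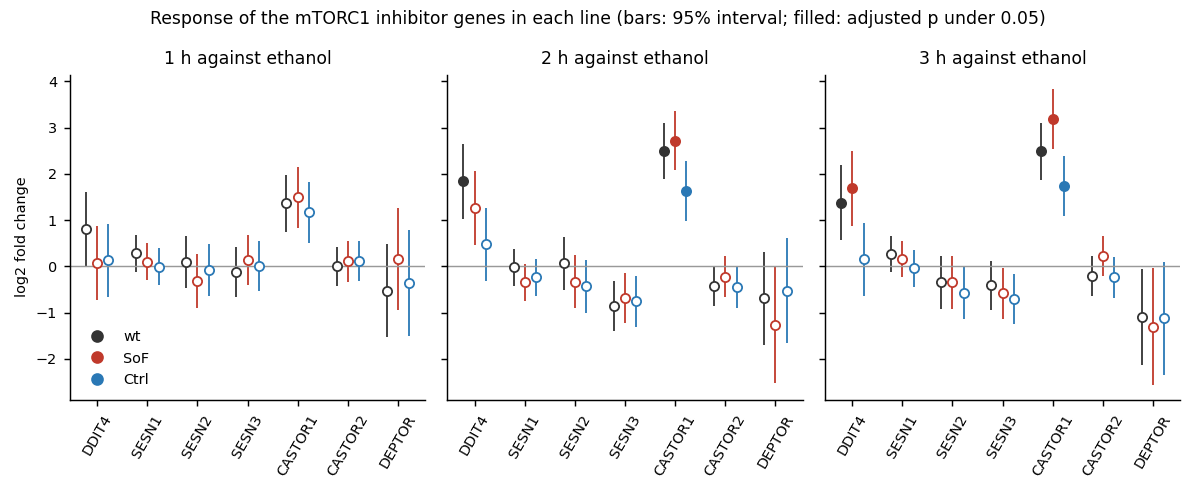
Log2 fold change against ethanol (y axis) of the 7 tested genes in wt (black), SoF (red) and Ctrl (blue) at 1, 2 and 3 h, with 95% intervals; filled points passed an adjusted p of 0.05. CASTOR1 is filled in all 3 lines at 2 h and 3 h, and DDIT4 in Ctrl at 3 h has 0.16 with an interval across 0.

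Whether the lines differ in the 3 h response was tested as an interaction, and no member was called, with 2 at an unadjusted p under 0.05 for SoF minus Ctrl, 1 for Ctrl minus wt and 0 for SoF minus wt. For SoF minus Ctrl, DDIT4 differed by 1.54 on the log2 scale (95% interval 0.41 to 2.66, unadjusted p = 0.0095, edgeR quasi-likelihood adjusted p = 1) and CASTOR1 by 1.45 (95% interval 0.53 to 2.36, unadjusted p = 0.00331, adjusted p = 1). Only 0.0127% of all tested genes were called there, with 671 of the 23651 at an unadjusted p under 0.05. For Ctrl minus wt, DDIT4 differed by -1.22 (95% interval -2.34 to -0.10, adjusted p = 0.982) and CASTOR1 by -0.75 (95% interval -1.63 to 0.13). For SoF minus wt the values were 0.31 (95% interval -0.81 to 1.43) and 0.69 (95% interval -0.18 to 1.57). In the latter 2 comparisons 0% of all tested genes were called, with 845 (Ctrl minus wt) and 558 (SoF minus wt) genes at an unadjusted p under 0.05. DESeq2 called no member in any of the 3. These intervals are wide and do not show that the lines respond alike. Single ethanol libraries moved the differences, with no call gained. For SoF minus Ctrl, CASTOR1 was 0.74 without Ctrl 0 h replicate 1 and 1.93 without SoF 0 h replicate 1, and DDIT4 was 1.06 without SoF 0 h replicate 2 and 2.29 without SoF 0 h replicate 1. For Ctrl minus wt, CASTOR1 was -0.04 without Ctrl 0 h replicate 1 and -1.15 without Ctrl 0 h replicate 2, and DDIT4 was -0.79 and -1.56. For SoF minus wt, DDIT4 was -0.18 without SoF 0 h replicate 2 and 1.07 without SoF 0 h replicate 1, and CASTOR1 was 0.37 and 1.17. Without the low-count filter, edgeR gave DDIT4 an adjusted p of 3.42e-07 and CASTOR1 0.00512 for SoF minus Ctrl, with an SE of 0.237 in place of 0.542 for DDIT4. In that fit the prior degrees of freedom were infinite, so every gene was given the spread of the trend and not its own, and in the filtered fit they were 10.3.

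The levels of the lines were also compared over all times, 8 libraries each. No member was called by edgeR or DESeq2 (background 8.02% for SoF minus wt, 4.77% for Ctrl minus wt, 3.61% for SoF minus Ctrl), and at an unadjusted p under 0.05 there were 1, 2 and 1 members. Of all 21122 tested genes, 5308, 3988 and 3019 were at an unadjusted p under 0.05, in the same order. CASTOR1 was lower in Ctrl than in wt by 1.14 on the log2 scale (95% interval -2.10 to -0.17, adjusted p = 0.176). That fit ignores time. With time as an additive term, CASTOR1 was called lower in Ctrl than in wt (-1.01, adjusted p = 0.000149) and higher in SoF than in Ctrl (0.72, adjusted p = 0.0053), SESN2 was called lower in SoF than in Ctrl (-0.46, adjusted p = 0.0183) and CASTOR2 lower in SoF than in wt (-0.31, adjusted p = 0.0203). In that fit 29% (SoF minus wt), 18.8% (Ctrl minus wt) and 13.3% (SoF minus Ctrl) of all tested genes were called. In ethanol alone CASTOR1 differed by -0.52 (Ctrl minus wt, adjusted p = 0.442) and DDIT4 by 1.26 (adjusted p = 0.164), and no member was called in any of the 3 ethanol comparisons (background 0.347% for SoF minus wt, 0.309% for Ctrl minus wt and 0.347% for SoF minus Ctrl, 1 member at an unadjusted p under 0.05 in each). Of all 23651 genes tested there, 4216, 3559 and 1675 were at an unadjusted p under 0.05, in the same order.

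The other genes of the pathway were described from 57 listed by their place in it, all of which were tested. At 1 h edgeR and DESeq2 called none, and 8 were at an unadjusted p under 0.05, as were 3332 of all 23651 tested genes. At 2 h 16 were called and at 3 h 16, each time 13 higher and 3 lower (28.1%, beside the backgrounds of 28.8% and 40.3% above). With RLE size factors the 2 h split was 13 higher and 7 lower. The median log2 fold change of the 57 at 3 h was 0.07. The counts by group given next stand beside the 3 h background of 40.3%, of which 20.9% higher and 19.3% lower.

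Downstream of mTORC1, TFEB, the transcription factor of lysosome genes that mTORC1 holds in the cytoplasm, rose by 1.77 on the log2 scale at 3 h (SE 0.17, adjusted p = 2.98e-08). Its known target RRAGD, a Rag GTPase that carries mTORC1 to the lysosome, rose by 1.27 (SE 0.12, adjusted p = 4.18e-08). Both rose in all 3 lines, TFEB by 1.88 in wt, 1.89 in SoF and 1.55 in Ctrl, and RRAGD by 1.16, 1.78 and 0.87. With the ethanol replicates 1 or 2 left out, TFEB had 1.80 or 1.77 and RRAGD 1.40 or 1.18. The activity of mTORC1 and the location of TFEB protein were not measured, and a link between these changes was not tested. LAMTOR2, a Ragulator subunit, rose by 1.07, and RRAGC by 0.40. Of the 9 Rag and Ragulator genes, 3 rose and LAMTOR3 fell by 0.25.

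GRB10, an adaptor that restrains insulin signalling and that mTORC1 phosphorylates, rose by 0.81, and EIF4EBP1, the repressor of translation that mTORC1 inactivates, by 0.50. RPS6KB2 rose by 0.30, so that 4 of the 10 substrates rose and none fell. Of all tested genes, 40.3% were called at 3 h and 20.9% were called higher. Among the inhibitory complexes, NPRL2 of GATOR1 rose by 0.80 (1 of 3) and TSC2 by 0.33, and TBC1D7, the third subunit of the TSC complex, fell by 0.31. At 3 h neither edgeR nor DESeq2 called any of the 5 genes of GATOR2, the complex that sestrins and CASTOR1 bind, whose values ran from -0.06 to 0.22 (0 at an unadjusted p under 0.05). The same was so for the 4 KICSTOR genes (0.02 to 0.25, 1 at an unadjusted p under 0.05) and the 7 folliculin and other sensor genes (-0.21 to 0.19, 1 at an unadjusted p under 0.05). Of all 23651 tested genes, 11391 were at an unadjusted p under 0.05 at 3 h. PRR5, a subunit of mTORC2, rose by 1.05 (1 of 8 complex subunits). Of the 7 upstream kinases, STK11 (0.37), AKT2 (0.26) and PDPK1 (0.24) rose and PRKAA2, a catalytic subunit of AMPK, fell by 0.57. Without the ethanol replicates 2, the calls of EIF4EBP1 (0.25), RRAGC (0.28), STK11 (0.16), PRKAA2 (-0.35), TBC1D7 (-0.24), RPS6KB2 (0.13), AKT2 (0.21) and LAMTOR3 (-0.12) were lost, and without the ethanol replicates 1 that of PDPK1 (0.20) was.

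**Figure D5:**
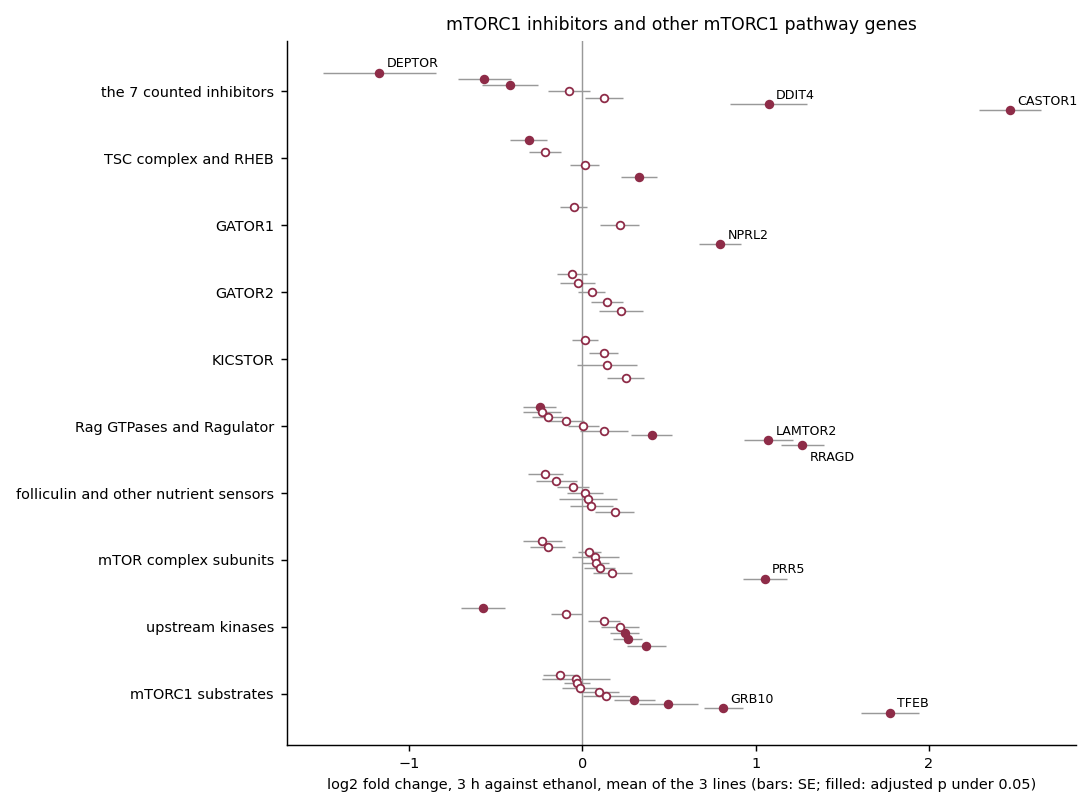
Log2 fold change at 3 h against ethanol, mean of the 3 lines (x axis), of the 7 counted inhibitors and the 57 other pathway genes by group; bars are the SE, filled points passed an adjusted p of 0.05. CASTOR1 (2.47) lies farthest right and DEPTOR (-1.17) farthest left, and 13 of the 57 are filled right of 0.

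Among factors known to control these inhibitors, FOXO1 rose by 2.19 on the log2 scale at 3 h (SE 0.17, adjusted p = 1.83e-09) and FOXO3 by 0.22 (adjusted p = 0.0264). With the ethanol replicates 1 or 2 left out FOXO1 had 2.22 or 2.19, both called, and FOXO3 had 0.21 or 0.24, neither called. FOXO1 rose by 2.13 in wt, 2.78 in SoF and 1.65 in Ctrl. HIF1A (-0.06), ATF4 (-0.05) and FOXO4 (-0.15) were not called. Their part in the changes of the inhibitors was not tested.

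The genes whose log2 CPM followed each inhibitor most closely over the 24 libraries were found among 19702 genes with a mean of at least 1 CPM. These libraries share lines, times and depth, so the correlations are a description. CASTOR1 was followed by MT1E (r = 0.974), its readthrough partner ENSG00000248751 (0.965) and MT2A (0.957), where both MT genes are metallothioneins, which bind zinc and copper. DDIT4 was followed by F3, tissue factor (0.899), TRIB3, a pseudokinase of the stress response (0.880), and ZFP36L2, an mRNA decay factor (0.875). SESN3 was followed by TNFRSF11B, the decoy receptor osteoprotegerin (0.932), TAB3 (0.919) and LINC00861 (0.901). The values for SESN2 were 0.826 with PSAT1, a serine synthesis enzyme, 0.796 with BLTP3A and 0.792 with ZFP82.

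SESN1 was followed by PARD6G (0.804), CEBPZOS (0.798) and RBM43 (0.777), CASTOR2 by SLC25A42 (0.846), SNPH (0.842) and GTF2A1-AS1 (0.833), and DEPTOR by GLT8D2 (0.839), BFSP1 (0.825) and NTF3 (0.825). Among the inhibitors themselves, DDIT4 and CASTOR1 had r = 0.615, DDIT4 and SESN3 -0.706, and CASTOR1 and CASTOR2 -0.02. MT1E and MT2A, the closest to CASTOR1 apart from its readthrough partner, rose at 3 h by 2.71 and 2.29. Their SoF minus Ctrl differences were 1.67 (SE 0.44) and 1.24 (SE 0.43), beside 1.45 for CASTOR1, none of them called. Both were picked for following CASTOR1 in these same libraries, so this likeness is built in and is not independent evidence.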

How the data were processed

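Newly made RNA of 24 U2OS libraries was analysed. Per the methods of the study and the submitters' processing notes, the authors handled molecular identifiers with UMI-tools 1.1.2, trimmed with Trim Galore 0.6.6, aligned to hg38 with STAR 2.7.3a and counted exon reads with featureCounts on GENCODE 39. The deposited values are whole-number counts per gene and library, not normalized. Only the table's title says that strand was used, so antisense overlaps are uncertain.

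Of 61533 genes, 61369 (99.7%) were matched to GENCODE 44 by identifier for symbols and hg38 positions. edgeR 4.0.16 (R 4.3.3) was run with TMM, filterByExpr (minimum count 10, minimum total 15), the quasi-likelihood test and Benjamini-Hochberg adjustment over all tested genes (threshold 0.05). The 12-group model kept 23651 of 48707 genes with counts, and a fit on the line alone kept 21122. Standard errors are the log2 fold change over the square root of F. Levels are TMM-scaled CPM, and log2 CPM used a prior count of 2. The 2 libraries of a group differed by 5.37 to 20.4 times counting error (chi-square per degree of freedom), so none was the same library deposited again, which does not show separate cultures. The fit was also run on counts simulated as independent libraries, which lack the shared deviations of the ethanol replicates and so cannot show their effect. Promoters are RefSeq's, on GRCh38, and were found for 6 of the 8 genes.

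The genes and lists were chosen with earlier results of these data known, and the neighbours of CASTOR1 and the correlated genes shown with fold changes were added after seeing values. Named pathway genes were the 12 called at 3 h with the largest change, and AKT2, PDPK1, RPS6KB2 and LAMTOR3 were named after their values were seen. Alternatives were RLE size factors, DESeq2 1.42.0 (the tool of the authors), no filter, a replicate block, each line alone, time as an additive term, and leaving out each library. Some genes of the marker and regulator lists are not reported here.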

Additional observations from a re-analysis of the deposited data

How the results depend on the processing

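No called value changed sign under any alternative. Of 140 member results, RLE size factors kept the call of 139, DESeq2 of 135, the replicate block of 134 and the fit without a low-count filter of 124, and leaving out the ethanol replicates 1 or 2 in all lines (chosen after seeing the data) kept 128 and 133. The counts of members called that moved by over 1.5 times, or from 0, were as follows, and the cause was not tested. The share of all tested genes called in the same fit is given only for time as an additive term. The other counts therefore describe the fits and are not results about the members or the pathway. A count that stayed the same can also hold different genes. At 1 h in wt 0 became 1 with DESeq2, the replicate block, the line alone, the ethanol replicates 2 left out or a block within each line (also chosen after seeing the data), and 2 without the filter. At 1 h in SoF 0 became 1 with DESeq2, no filter, either block or the ethanol replicates 1 left out, and in Ctrl 0 became 1 without the filter. At 2 h in SoF 1 became 3 without the filter or without the ethanol replicates 1, and 2 with either block. At 2 h in Ctrl 1 became 2 with DESeq2, no filter, the line alone, the ethanol replicates 1 left out or the block within each line. At 3 h in Ctrl 1 became 2 with DESeq2 or without the ethanol replicates 1, and 3 without the filter, in the line alone or with the block within each line. In the mean of the lines at 2 h 4 became 2 without the ethanol replicates 2. Smaller moves were from 2 to 3 in wt at 2 h (SESN3 gained with DESeq2, no filter, either block or without the ethanol replicates 1), from 2 to 3 in SoF at 3 h (SESN3 gained without the filter or without the ethanol replicates 1), from 4 to 5 in the mean at 2 h (DEPTOR gained with RLE, no filter or either block) and from 5 to 4 in the mean at 3 h without either set of ethanol replicates. From 2 h to 3 h 0 became 1 with either block and without either set of ethanol replicates. Without the filter, the 3 h response differences went from 0 to 2 (SoF minus Ctrl) and 0 to 1 (Ctrl minus wt). With time as an additive term, the line differences went from 0 to 1 (SoF minus wt), 1 (Ctrl minus wt) and 2 (SoF minus Ctrl), the last also to 1 without the ethanol replicates 1. Of the pathway genes, 16 in place of 0 were called at 1 h and 7 in place of 16 at 2 h without the ethanol replicates 2, and 26 at 2 h without the ethanol replicates 1.

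Over the 24 fits that left out 1 library each, members called ranged in wt from 0 to 1 at 1 h, 1 to 3 at 2 h and 1 to 2 at 3 h, in SoF from 0 to 1, 1 to 3 and 1 to 3, in Ctrl from 0 to 0, 0 to 2 and 1 to 2, and in the mean of the lines from 1 to 1, 3 to 6 and 4 to 5. They ranged from 4 to 5 for the step from 1 h to 2 h, 0 to 1 for that from 2 h to 3 h, 0 to 0 for the 3 response differences and for the line differences SoF minus wt and Ctrl minus wt, and 0 to 1 for the line difference SoF minus Ctrl. Pathway genes ranged from 0 to 0 at 1 h, 11 to 22 at 2 h and 11 to 19 at 3 h. For a group reduced to 1 library, the spread was taken from the other groups. The share of all tested genes called in these fits is not given, so these ranges are not results about the members or the pathway.

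The labels do not say that replicate numbers pair libraries across groups. The deviations of same-numbered libraries had correlations of -0.221 to 0.568 over 66 pairs of groups (median 0.038), and the 3 pairs of ethanol groups had 0.394 to 0.568. Values of that size were not limited to ethanol pairs: SoF 2 h had 0.434 with SoF 0 h and 0.396 with Ctrl 0 h. Pairs with no ethanol group ran from -0.220 (wt 1 h with Ctrl 1 h) to 0.299 (wt 1 h with wt 2 h). Steps between times can therefore hold shared deviations too. The replicate block made 6 more member calls: CASTOR1 at 1 h in wt (adjusted p = 0.0378) and SoF (0.0419), DDIT4 in SoF at 2 h (0.0431), SESN3 in wt at 2 h (0.0477), DEPTOR at 2 h in the mean of the lines (0.04) and SESN1 from 2 h to 3 h. With 2 libraries per group and 2 to 30 reads of DEPTOR, differences of the size of the intervals given could not be resolved.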
